A study of Macaca fascicularis with 16 samples.

Results

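The genes described here encode the nuclear subunits of the mitochondrial respiratory chain and of ATP synthase, with the assembly factors that share their symbols. They were taken from the gene count tables by name, as every symbol that begins with NDUF, with SDH followed by A to D, with UQCR, with COX followed by a digit, or with ATP5. This gave 112 symbols, of which 5 were pseudogenes (SDHAP1, SDHAP2, SDHAP3, UQCRBP1 and ATP5EP2) and were left out. The remaining 107 genes stood among 23602 symbols in all. They comprised 85 subunits and subunit paralogs, 19 assembly factors, 1 antisense transcript (COX10-AS1) and 2 read-through entries (NDUFC2-KCTD14 and ATP5J2-PTCD1). By complex, the 85 were 37 genes of complex I, 4 of complex II, 9 of complex III, 19 of complex IV and 16 of complex V. NDUFA4 was placed with complex IV, where its protein is found, although its name is that of a complex I gene.

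Total RNA was sequenced from peripheral blood mononuclear cells (PBMC) of 4 Mauritian-origin cynomolgus macaques, LG04, LG11, LG12 and LG15. Each animal was bled before and at 30 minutes, 2 hours and 1 day after NKTT320. This monoclonal antibody recognises the T cell receptor shared by invariant natural killer T (iNKT) cells, and activates those cells. This gave 16 libraries, 4 at each time, and every animal received the antibody. Untreated animals were not analysed here, so the antibody, the passage of time and repeated bleeding cannot be told apart, and the study's question was what activation of iNKT cells does in the living animal.

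The respiratory chain passes electrons from NADH (complex I) and from succinate (complex II) through complex III to oxygen at complex IV. Complexes I, III and IV pump protons out of the mitochondrial matrix, and complex V, the ATP synthase, uses the returning protons to make ATP. Most subunits are encoded in the nucleus and are synthesised in the cytosol, while a few are encoded by mitochondrial DNA; the mitochondrially encoded subunits were not analysed here. Core subunits carry out the catalysis, supernumerary (accessory) subunits stabilise the complexes, and assembly factors help to build them without remaining in the finished enzyme. Resting lymphocytes rely largely on this pathway for ATP, and activated lymphocytes are known to increase both glycolysis and mitochondrial content.

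Libraries held between 1417467 and 8582852 counts, and 3 counts were worth 0.352 to 1.97 CPM on the scale used below (counts scaled to a common library size). Globin genes took from 0.0253% to 48.7% of the counts of a library. In LG04 they took 20.3% before treatment, 38.2% at 30 minutes, 48.7% at 2 hours and 13.6% at 1 day. Levels below are CPM scaled by TMM, a factor that equalises the bulk of genes between libraries, unless another scale is named. The 1 day library of LG04 went against the animal of its label in likeness. Its best match among all libraries was the 1 day library of LG15 (Pearson's r of 0.69 across genes, over deviations from each gene's mean), against values between -0.25 and 0.28 with the other libraries of LG04. In all, 13 of 16 libraries resembled a library of their own animal most. The other exceptions were the libraries of LG15 before treatment and at 1 day. Both matched the 1 day library of LG04 best (r of 0.54 and 0.69), against at most 0.41 with other libraries of LG15. The deposited tables also differ on which library of LG04 is which: the series-wide column named for 2 hours holds the values that the table of that animal, and the series-wide column named for 1 day, give for 1 day. That 2 hour column leaves the time labels of the 2 hour and 1 day libraries of LG04 in doubt. Likeness bears on the animal of its 1 day library, whose best match was also a 1 day library. The libraries whose best match was another animal also had the highest summed platelet markers. These were 32286 CPM (LG04 at 1 day), 26511 CPM (LG15 at 1 day) and 9795 CPM (LG15 before treatment). All other libraries had at most 6373 CPM, and whether likeness follows platelet RNA was not tested. The group results at 30 minutes, 2 hours and 1 day are given also without LG04. The marker genes listed for T cells, B cells, NK cells, monocytes, platelets, red cells and neutrophils all had counts, so the mononuclear cells also held RNA of platelets, red cells and granulocytes.

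All 5 complexes were represented in PBMC before treatment. Per length, in the FPKM that the authors deposited (fragments scaled to gene length and library size), the median over the core and supernumerary subunits was 25.4 FPKM for complex I (37 genes), 14.9 FPKM for complex II (4 genes), 22.2 FPKM for complex III (8 genes), 54.9 FPKM for complex IV (11 genes) and 47.8 FPKM for complex V (15 genes). Subunits of one complex, which assemble in fixed numbers, differed widely in transcript level. In complex V the levels ran from 9.10 ± 6.36 FPKM for ATP5D, the delta subunit of the F1 part, to 593.9 ± 129.4 FPKM for ATP5E, the epsilon subunit (SD, n = 4). The catalytic subunits ATP5A1 (alpha) and ATP5B (beta) stood at 235.4 ± 54.5 and 144.3 ± 25.7 FPKM. The rank of ATP5E rests on the length by which its fragments were divided, which is not given in the sources used here: in CPM, which takes no account of length, it had a mean of 11.6 CPM before treatment. In complex IV the range was from 17.1 ± 4.37 FPKM for NDUFA4 to 188.4 ± 31.7 FPKM for COX7C, with COX4I1, the largest nuclear subunit, at 184.0 ± 52.7 FPKM. In complex I the lowest was NDUFA10 (5.17 ± 1.69 FPKM) and the highest NDUFA1 (110.9 ± 29.0 FPKM). In complex II the iron-sulfur subunit SDHB (38.7 ± 8.19 FPKM) and the flavoprotein SDHA (22.2 ± 6.96 FPKM) stood above the membrane anchors SDHC (7.58 ± 2.48 FPKM) and SDHD (3.43 ± 0.883 FPKM). In complex III the range ran from UQCRB (4.14 ± 0.804 FPKM) to UQCRH (74.6 ± 15.5 FPKM), and the Rieske iron-sulfur protein UQCRFS1 stood at 21.2 ± 1.80 FPKM. The counts of UQCRH and its near-identical copy UQCRHL, of ATP5E and the pseudogene ATP5EP2, of UQCRB and UQCRBP1, and of SDHA and the SDHAP pseudogenes are uncertain, because the counting could have split their reads.

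**Figure D1:**
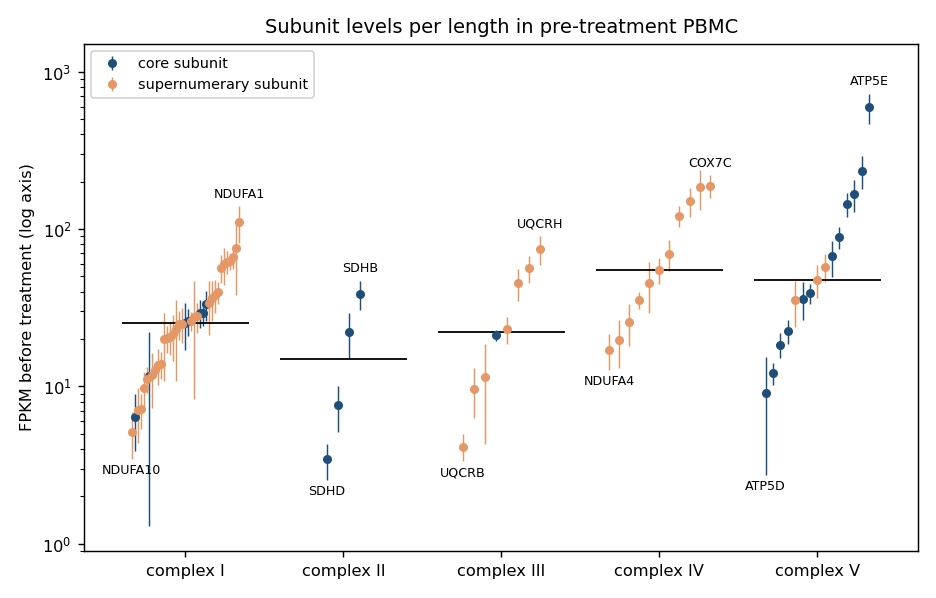
Mean FPKM before treatment (log axis) of each core and supernumerary subunit, grouped by complex and sorted within it; bars are the SD over 4 animals and black lines are the medians over genes. Medians of complexes IV and V (54.9 and 47.8 FPKM) lie above those of complexes I, II and III (25.4, 14.9 and 22.2 FPKM), and ATP5E at 593.9 FPKM stands above all others on this scale, which divides by gene length.

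Paralogs known from muscle, testis or other tissues were at or near the counting limit, and their ubiquitous partners were not. COX4I2, a lung paralog of COX4I1, and COX7B2, a testis paralog of COX7B, had 0 counts in all 16 libraries, which allows at most 1.97 CPM in the library where 3 counts are worth most, that of LG04 at 1 day. The read-through entries NDUFC2-KCTD14 and ATP5J2-PTCD1 were also at 0 throughout. COX6A2 (muscle), COX8C (testis) and NDUFA4L2 (induced by low oxygen in human cells) reached at most 1 count in any library, COX6B2 (testis) at most 3 and ATP5L2 at most 4. COX7A1, the heart and muscle paralog of COX7A2, was detected at low level, with means of 2.52 ± 0.533 CPM before treatment, 2.37 ± 1.89 CPM at 30 minutes, 3.06 ± 1.36 CPM at 2 hours and 2.43 ± 1.28 CPM at 1 day. COX7A2L, a relative of COX7A2 that sits between complexes III and IV in supercomplexes, was abundant, at 34.7 ± 5.65 CPM before treatment. The 3 genes for the same mature c subunit of the ATP synthase rotor were all expressed. In FPKM before treatment, ATP5G2 stood at 39.2 ± 5.82, ATP5G1 at 22.5 ± 3.96 and ATP5G3 at 18.4 ± 3.31 (SD, n = 4 each).

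No gene of the respiratory chain passed the test at any time. With edgeR's quasi-likelihood F test, animal as a block and p-values adjusted over all 11545 genes tested, 97 of the 107 genes could be tested (78 subunits and all 19 assembly factors). Against pre-treatment, 0 of 97 were called at 30 minutes (0% of all genes), 0 of 97 at 2 hours (0% of all genes) and 0 of 97 at 1 day (0.225% of all genes). Between later times, 0 of 97 were called at 2 hours against 30 minutes (0% of all genes) and 0 of 97 at 1 day against 2 hours (0.104% of all genes). DESeq2 also called 0 of them in each of the 5 comparisons. At an unadjusted p under 0.05, edgeR gave 1 member at 30 minutes, 3 at 2 hours and 1 at 1 day against pre-treatment, with 2.53%, 7.43% and 13.6% of all genes past that limit. It gave 0 at 2 hours against 30 minutes and 5 at 1 day against 2 hours, with 4.6% and 12.6% of all genes. The smallest adjusted p over the members was 0.24, for NDUFB9 at 1 day. The standard error (SE) of a subunit's log2 fold change had a median between 0.22 and 0.24 over the 5 comparisons, and it ran from 0.14 for NDUFS1 to 0.83 for ATP5D. The block takes out differences in level between animals. The p-values thus set the mean change over time against how far such changes differed between these 4 animals.

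At 30 minutes the subunits stood slightly above pre-treatment as a group. Of 78 subunits, 60 had a log2 fold change above 0 (54% of all genes did), and their median was 0.10 against 0.02 over all genes. By complex, values above 0 were found for 28 of 37 genes of complex I (median 0.11), 3 of 4 of complex II (0.10), 6 of 9 of complex III (0.06), 10 of 13 of complex IV (0.15) and 13 of 15 of complex V (0.09). The animals did not share the direction. The median over subunits was 0.42 in LG04, -0.17 in LG11, -0.16 in LG12 and 0.23 in LG15. Without LG04 the median was -0.04, with 29 of 78 above 0, and the counts were 13 of 37 for complex I, 2 of 4 for complex II, 4 of 9 for complex III, 3 of 13 for complex IV and 7 of 15 for complex V. Higher in 4 of 4 animals were 5 subunits (NDUFV2, NDUFB4, UQCRB, ATP5C1 and ATP5G2) and 1 was lower in 4 of 4 (SDHC), where 6.21% of all genes were higher and 4.42% lower in 4 of 4.

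At 2 hours more of the subunits lay above pre-treatment. Of 78 subunits, 70 had a log2 fold change above 0 (52.7% of all genes did), with a median of 0.16 against 0.02 over all genes. All 13 tested genes of complex IV lay above 0 (median 0.20), as did 33 of 37 of complex I (0.18), 14 of 15 of complex V (0.10), 7 of 9 of complex III (0.14) and 3 of 4 of complex II (0.11). The exception in complex II was SDHC, at -0.30 ± 0.16 (SE). The excess above 0 rested on 1 animal, LG04, whose 2 hour and 1 day labels are in doubt. The median over subunits was 0.56 in LG04, against -0.07 in LG11, 0.08 in LG12 and 0.01 in LG15. Without LG04 the median was -0.03 with 32 of 78 above 0, and the counts were 8 of 13 for complex IV, 15 of 37 for complex I, 5 of 15 for complex V, 3 of 9 for complex III and 1 of 4 for complex II. In 4 of 4 animals 6 subunits were higher (NDUFA1, NDUFA10, NDUFB1, COX7A2, ATP5E and ATP5G2) and 0 were lower, where 8.06% of all genes were higher and 6.52% lower in 4 of 4.

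At 1 day the subunits were spread about 0. Of 78, 44 had a log2 fold change above 0 (50% of all genes did), with a median of 0.04 against -0.00 over all genes. The counts above 0 were 19 of 37 for complex I, 2 of 4 for complex II, 6 of 9 for complex III, 8 of 13 for complex IV and 9 of 15 for complex V. Without the 1 day library of LG04 the median was 0.08, and the counts were 27 of 37 for complex I, 3 of 4 for complex II, 5 of 9 for complex III, 7 of 13 for complex IV and 10 of 15 for complex V. Without LG04 altogether the median was 0.00 with 39 of 78 above 0, and the counts were 23 of 37, 3 of 4, 3 of 9, 5 of 13 and 5 of 15 for complexes I to V. Higher in 4 of 4 animals were NDUFA2, NDUFA8, COX7B, ATP5E and ATP5J, and lower in 4 of 4 were NDUFB9, COX6A1 and COX8A. This is 5 higher and 3 lower of 78, where 9.83% of all genes were higher and 9.09% lower in 4 of 4.

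Between the later times, 48 of 78 subunits lay above 0 at 2 hours against 30 minutes (52.4% of all genes did), with a median of 0.06. With a monocyte marker score in the fit this was 20 of 78 with a median of -0.10, where the median of all genes was -0.03. With limma on log2(FPKM + 1) it was 34 of 78 with a median of -0.02, where that of all genes was -0.06. In 4 of 4 animals 4 were higher and 1 was lower, where 8.54% and 8.06% of all genes were. Set against 2 hours, 23 of 78 subunits lay above 0 at 1 day (48.1% of all genes did), with a median of -0.14, and complex IV had 1 of 13 above 0 (median -0.27). Complex IV had 4 of 13 above 0 without LG04 (median -0.05) and 3 of 13 without only its 1 day library (median -0.11). In 4 of 4 animals 3 were higher (NDUFC2, SDHC and UQCRQ) and 5 were lower (among them NDUFB8, NDUFB9, COX7C and ATP5I), where 11.3% and 9.16% of all genes were. By animal the median was -0.67 in LG04, 0.23 in LG11, -0.06 in LG12 and -0.12 in LG15. Without LG04 the median at 1 day against 2 hours was 0.05 with 43 of 78 above 0, and without only its 1 day library it was -0.04 with 31 of 78 above 0. These comparisons share libraries, so they are not independent of each other.

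**Figure D2:**
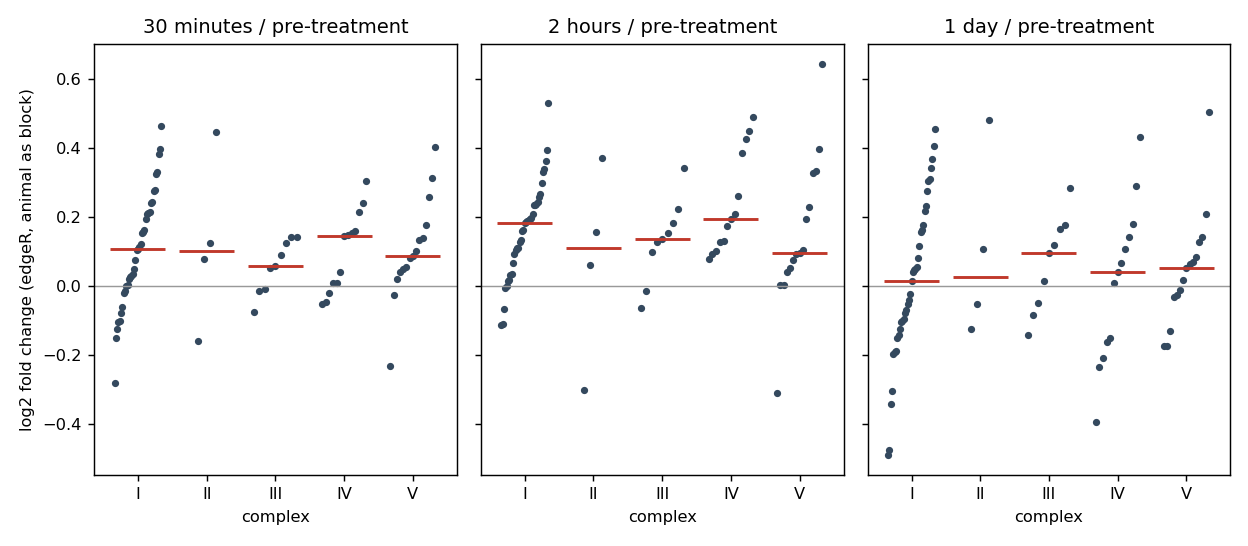
Log2 fold change of each of the 78 tested subunits (points) by complex, from the fit with animal as block, at 30 minutes, 2 hours and 1 day against pre-treatment; red lines are medians. At 30 minutes 60 of 78 points lie above 0, at 2 hours 70 and at 1 day 44, and in a fit without LG04 the counts at 30 minutes and 2 hours are 29 and 32.

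Summed over its subunits, each of the 5 complexes was highest at 2 hours in LG04, at 30 minutes in LG15 and at 1 day in LG11. In LG12 complexes III, IV and V were highest at 2 hours and complexes I and II at 1 day. The sum over all subunits in LG04 was 2460.2 CPM before treatment, 3277 CPM at 30 minutes, 3733 CPM at 2 hours and 2474 CPM at 1 day. In LG11 the sums in the same order were 2770.2, 2481, 2639 and 2985 CPM. In LG12 they were 2402, 2242, 2488 and 2312 CPM, and in LG15 they were 2698, 3154, 2724 and 2427 CPM. The sum over all subunits was thus highest at 2 hours in LG04 and LG12, at 30 minutes in LG15 and at 1 day in LG11, and LG12 had the lowest sum of the 4 animals at each time. The ranges of the 4 animals overlapped between all times, and the means were 2583 ± 179.0 CPM before treatment, 2789 ± 504.9 CPM at 30 minutes, 2896 ± 566.6 CPM at 2 hours and 2549.7 ± 298.1 CPM at 1 day (SD, n = 4 each).

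The course of the summed level depended on the scale. As a log2 ratio of its summed level at 2 hours to that before treatment, LG04 gave 0.60 with TMM, 0.21 when globin counts were left out of the total and -0.43 when all counts were kept. The direction in LG04 differed between the scales, beside a globin share of 48.7% at 2 hours against 20.3% before treatment. In LG15 at 1 day the ratios on the same scales were -0.15, -0.40 and -0.65. With globin counts left out, the mean sum was 2779 ± 509.2 CPM at 1 day and 3151 ± 225.0 CPM before treatment (SD, n = 4 each). By animal the 1 day ratios on that scale were -0.29 in LG04, 0.03 in LG11, -0.12 in LG12 and -0.40 in LG15. Summed red cell markers in LG04 reached 938893 CPM on the TMM scale at 2 hours, against 190051 CPM before treatment. Summed monocyte markers were higher at 2 hours than before treatment in 4 of 4 animals, with levels of 1041 to 5873 CPM at 2 hours against 397.5 to 2083 CPM before treatment, and 8 of 8 had a log2 fold change above 0 (median 1.91), with 0 called. T cell markers lay below 0 in 8 of 8 at 2 hours (median -0.44). With a monocyte marker score in the fit, the median over the 78 subunits at 2 hours was -0.04, with 35 above 0. Platelet markers at 1 day had summed levels of 793.8 to 32286 CPM, against 129.2 to 9795 CPM before treatment. The part of these cells in the subunit values was not tested, and in bulk RNA fewer cells of a type and less RNA per cell cannot be told apart.

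**Figure D3:**
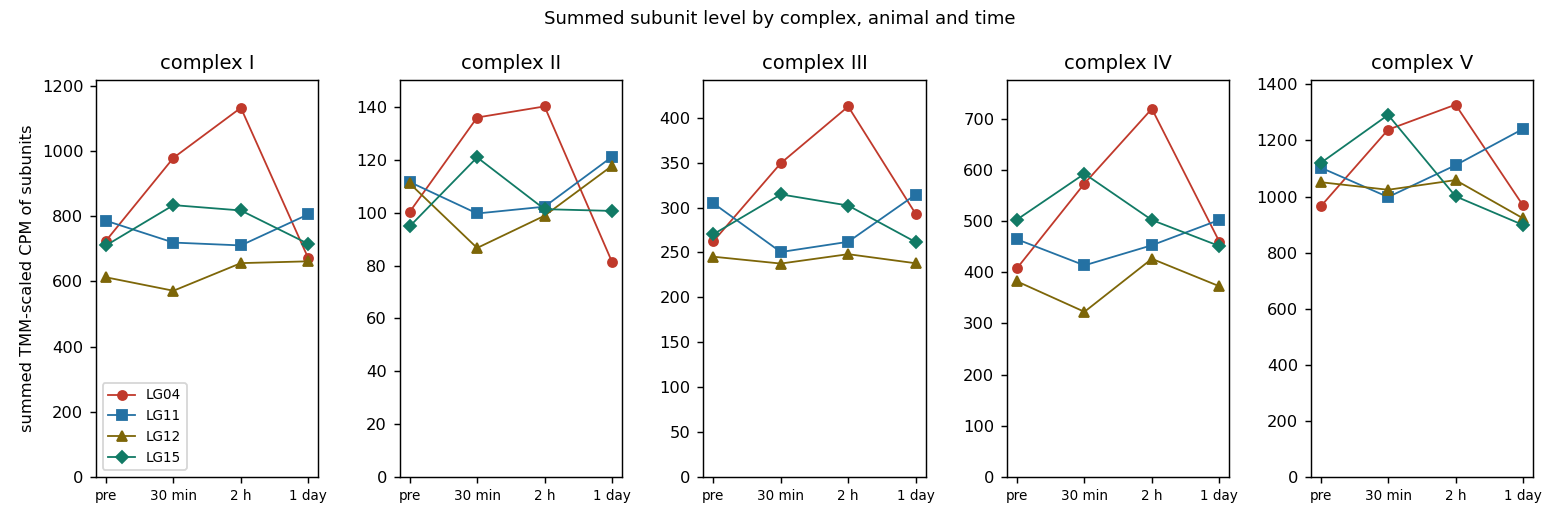
Summed TMM-scaled CPM of the subunits of each complex (vertical axis from 0, own scale for each complex) in each animal before treatment and at 30 minutes, 2 hours and 1 day. In every complex LG04 is highest at 2 hours, and its 1 day value lies near or below its pre-treatment value in complexes I, II and V.

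**Figure D4:**
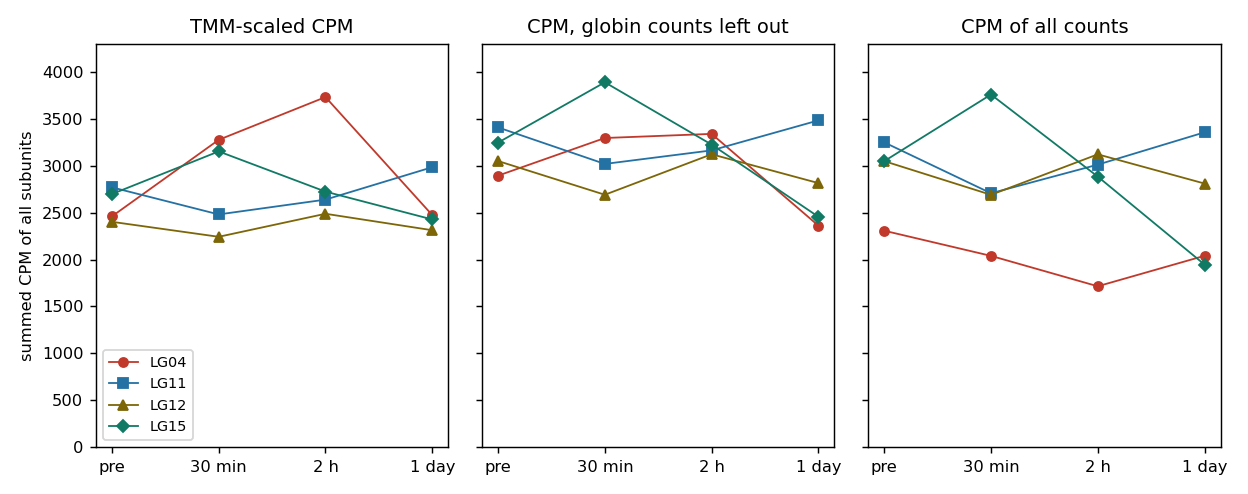
Summed CPM of all subunits in each animal over the 4 times on 3 scales, TMM-scaled, with globin counts left out of the total, and on all counts. The 2 hour value of LG04 lies above its pre-treatment value on the first 2 scales (log2 ratios 0.60 and 0.21) and below it on the third (-0.43).

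In complex I, the subunit with the smallest p at 1 day was lower. NDUFB9, an accessory subunit of the membrane arm, had 26.3, 33.1, 12.8 and 23.3 CPM at 1 day in LG04, LG11, LG12 and LG15, against 33.7, 34.0, 25.8 and 38.8 CPM before treatment. Its level was lower in 4 of 4 animals but the ranges overlapped. The log2 fold change was -0.49 ± 0.18 (SE), with an edgeR p of 0.020 and an adjusted p of 0.24, and it lay between -0.67 and -0.31 when each animal was left out in turn. Against 2 hours, where it had 47.3, 35.1, 24.0 and 37.5 CPM in the same animals, the log2 fold change at 1 day was -0.58 ± 0.19 (adjusted p of 0.28). NDUFB8, another accessory subunit of the membrane arm, had -0.34 ± 0.17 at 1 day against pre-treatment (adjusted p of 0.42). NDUFC2, also of the membrane arm, lay on the other side, with 15.8, 15.9, 13.9 and 11.1 CPM at 1 day against 9.22, 12.3, 7.97 and 11.7 CPM before treatment. It was higher in 3 of 4 animals, and its log2 fold change of 0.45 ± 0.22 had an adjusted p of 0.41. NDUFA1, a small subunit needed for the membrane arm, had log2 fold changes of 0.34 ± 0.17 at 2 hours and 0.37 ± 0.17 at 1 day against pre-treatment (adjusted p of 0.69 and 0.38). With a platelet marker score in the fit its 1 day value was -0.01. Platelet markers themselves rose at 1 day (9 of 9 above 0, median 2.85), so that fit cannot cleanly separate the score from time. Over the 78 subunits the 1 day median was 0.02 with the score (41 above 0), against 0.04 without it.

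The core subunits of complex I that carry the electrons had no common direction. NDUFS1, which holds several iron-sulfur clusters, was among the steadiest genes, with means of 83.3 ± 7.33 CPM before treatment, 85.9 ± 7.97 CPM at 30 minutes, 93.4 ± 12.8 CPM at 2 hours and 86.5 ± 18.2 CPM at 1 day (SD, n = 4 each). NDUFV1, which binds NADH, ranged from 16.6 CPM in LG12 at 30 minutes to 69.4 CPM in LG15 at 2 hours, and the spread between animals exceeded that between times. Its partner NDUFV2 was higher at 30 minutes in 4 of 4 animals, at 24.3, 24.1, 26.8 and 31.3 CPM against 23.6, 19.2, 16.7 and 28.7 CPM before treatment (log2 fold change 0.28 ± 0.18, adjusted p of 1.00). NDUFS3 had 38.6 CPM in LG04 at 2 hours, where the highest of the other 3 animals had 20.9 CPM. Accessory subunits among the smallest p in their direction had small fold changes against pre-treatment. These were 0.38 ± 0.28 for NDUFB3 and -0.15 ± 0.34 for NDUFS6 at 30 minutes, and -0.11 ± 0.30 for NDUFA5 and -0.06 ± 0.22 for NDUFB6 at 2 hours.

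The 4 subunits of complex II did not move together. SDHC had 13.6, 16.6, 17.5 and 12.5 CPM at 2 hours in LG04, LG11, LG12 and LG15, against 16.6, 15.7, 24.5 and 18.3 CPM before treatment. It was lower in 3 of 4 animals, and its log2 fold change stayed between -0.45 and -0.22 when each animal was left out, with an adjusted p of 0.71. SDHB had 69.0, 45.8, 21.0 and 33.5 CPM at 2 hours, against 37.2, 44.8, 25.7 and 36.3 CPM before treatment, and of the 4 animals LG04 had by far the largest difference. SDHA, at 48.7 ± 8.87 CPM at 2 hours and 46.1 ± 9.06 CPM before treatment, differed by less than the spread between animals (log2 fold change 0.06 ± 0.18). SDHD, at 4.99, 4.74 and 4.86 CPM at the 3 later times against 3.64 CPM before treatment, had log2 fold changes of 0.45 ± 0.35, 0.37 ± 0.35 and 0.48 ± 0.36 at 30 minutes, 2 hours and 1 day.

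In complex III, UQCRFS1 was high in LG04 at 2 hours. It had 37.3, 18.3, 17.3 and 20.5 CPM at 2 hours in LG04, LG11, LG12 and LG15, against 23.5 CPM in LG04 and about 20 CPM in each of the others before treatment. Its log2 fold change at 2 hours was 0.10 ± 0.19 (adjusted p of 0.94). UQCRC1 and UQCRC2, large subunits that face the matrix, had 0.14 ± 0.22 and 0.18 ± 0.18 at 2 hours, and UQCRB, next to the ubiquinone site, had -0.01 ± 0.20. UQCRH, the hinge protein beside cytochrome c1, varied least of all 78 subunits, with an SD of 0.18 in log2 CPM over the 16 libraries and levels between 19.4 and 29.8 CPM.

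In complex IV, COX7A2 was higher at 2 hours in 4 of 4 animals, with 42.2, 24.4, 13.9 and 20.5 CPM in LG04, LG11, LG12 and LG15, against 18.8, 17.6, 12.8 and 19.2 CPM before treatment. The ranges overlapped, and the log2 fold change of 0.49 ± 0.24 (adjusted p of 0.68) was 0.23 without LG04. COX7B had 60.5, 49.7, 26.7 and 75.1 CPM at 1 day, against 40.6, 37.6, 26.0 and 47.0 CPM before treatment. It was higher in 4 of 4 animals, though hardly so in LG12. Its log2 fold change was 0.43 ± 0.26 (adjusted p of 0.53), and 0.01 with a platelet marker score in the fit. Platelet markers themselves rose at 1 day, so that fit cannot cleanly separate the score from time. COX4I1, the regulatory subunit, had a log2 fold change of 0.20 ± 0.17 at 2 hours and 0.11 ± 0.17 at 1 day. COX5A and COX5B, subunits that face the matrix, had 0.09 ± 0.25 and 0.43 ± 0.30 at 2 hours, and COX5A had -0.39 ± 0.26 at 1 day. COX8A had 87.0 CPM in LG04 at 2 hours, against 27.0 to 30.4 CPM in the other animals. NDUFA4 had -0.21 ± 0.20 at 1 day. COX6A1, which was lower at 1 day in 4 of 4 animals, had 8.35 ± 1.59 CPM at 1 day and 9.50 ± 2.67 CPM before treatment (log2 fold change -0.16 ± 0.27).

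Complex V held the genes with the smallest p at 30 minutes and 2 hours. ATP5G2 had 35.4, 30.4, 31.0 and 36.3 CPM at 30 minutes in LG04, LG11, LG12 and LG15, against 24.0, 25.2, 23.1 and 28.3 CPM before treatment. The 2 times did not overlap. The log2 fold change was 0.40 ± 0.15 (SE), with an edgeR p of 0.019 and an adjusted p of 1.00, and 0.32 without LG04. At 2 hours ATP5G2 had 37.3, 27.1, 29.0 and 34.0 CPM, a log2 fold change of 0.33 ± 0.15 with an adjusted p of 0.67. The other 2 genes for the c subunit did not share this course, with ATP5G1 at 0.04 ± 0.27 and ATP5G3 at 0.13 ± 0.14 at 30 minutes. The difference between the 3 genes was not tested. ATP5G1 had 13.0, 5.55, 6.28 and 3.5 CPM at 2 hours, against 8.88, 9.51, 6.61 and 8.88 CPM before treatment, lower in 3 of 4 animals (log2 fold change -0.31 ± 0.28). ATP5J2, of the membrane part, had -0.23 ± 0.21 at 30 minutes. ATP5E had 43.7, 13.3, 8.01 and 17.0 CPM at 2 hours, against 16.6, 11.5, 6.22 and 12.2 CPM before treatment. It was higher in 4 of 4 animals, with a log2 fold change of 0.64 ± 0.27 (adjusted p of 0.63) that was 0.34 without LG04. At 1 day ATP5E was again higher in 4 of 4, at 0.50 ± 0.28 (adjusted p of 0.48). Of the subunits of the catalytic head, ATP5A1 had 0.00 ± 0.15 and ATP5B 0.08 ± 0.18 at 2 hours, and -0.17 ± 0.15 and -0.13 ± 0.18 at 1 day. ATP5C1, the shaft, and ATP5O, of the stalk that holds the head, had 0.09 ± 0.17 and 0.05 ± 0.14 at 2 hours.

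Animals differed more than times for most of these genes, as for most genes tested. The share of a gene's sum of squares in log2 CPM that lay between animals had a median of 38.1% over the 78 subunits, against 9.22% between times, and it was the larger in 65 of 78 (83.3%). The rest lay in neither share, as differences between animals in their course over time. Some share falls to animals and to times even without an effect. Over all genes tested the medians were 46.4% between animals and 12.1% between times, and the share between animals was the larger in 82.4% of 11545 genes. The median SD in log2 CPM over the 16 libraries was 0.34 for the subunits and 0.44 for all genes, and 26 of 78 subunits exceeded 0.44. The same median was 0.27 for 79 cytosolic ribosomal proteins, 0.37 for 73 mitochondrial ribosomal proteins and 0.31 for 35 proteasome subunits, and these differences were not tested. Complex IV had the widest median SD (0.50 over 13 genes) and complex V the narrowest (0.29 over 15 genes).

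The spread over the 16 libraries differed widely between subunits. The 10 with the largest SD were NDUFS7, ATP5D, NDUFB7, NDUFA3, NDUFA11, ATP5E, UQCR11, COX7A1, NDUFS8 and NDUFA7, with SDs between 0.67 and 1.4. They come from complexes I, III, IV and V, were chosen for their spread after the values were seen, and get no test. NDUFS7, which carries the last iron-sulfur cluster before ubiquinone, had 12.9, 14.2, 13.9 and 5.26 CPM in LG04 over the 4 times, and in LG12 it had 0.777, 0, 1.95 and 4.06 CPM. ATP5D had 9.72, 14.6, 10.8 and 5.91 CPM in LG04, against 2.14, 0, 5.20 and 9.87 CPM in LG12. Both genes were at 0 counts in LG12 at 30 minutes, where 3 counts are worth 1.28 CPM. Relative to each gene's own mean over the 16 libraries, their median in log2 CPM was 0.66, 1.09, 1.20 and -0.17 in LG04 and 0.66, 0.06, -0.48 and -0.15 in LG11, over the 4 times from pre-treatment to 1 day. In LG12 it was -1.12, -2.02, -0.63 and -0.05, and in LG15 it was -0.44, 0.46, 0.66 and 0.79. At 30 minutes all 10 lay above their mean in LG04 and 0 of 10 in LG12. The 10 steadiest subunits (UQCRH, NDUFS1, ATP5O, ATP5A1, COX6C, NDUFV3, NDUFB4, ATP5L, NDUFA9 and ATP5C1) had medians between -0.18 and 0.26 in all libraries. They were chosen for their small spread, so this narrow range follows from the choice. Leaving the 10 most variable genes out gave a median log2 fold change at 2 hours of 0.13 over the other 68 subunits.

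**Figure D5:**
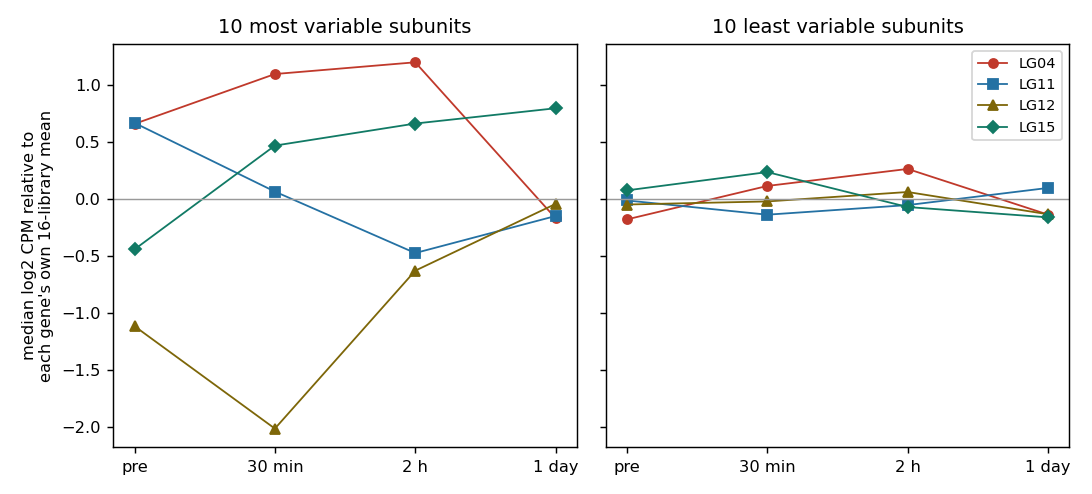
Median log2 CPM relative to each gene's own mean over 16 libraries, for the 10 subunits with the largest and the 10 with the smallest SD, by animal and time. The most variable subunits run from -2.02 (LG12 at 30 minutes) to 1.20 (LG04 at 2 hours), and the least variable stay between -0.18 and 0.26.

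The 19 assembly factors had 0 calls in each of the 5 comparisons, where at most 0.225% of all genes were called. Against pre-treatment the median log2 fold change was 0.07 at 30 minutes (13 of 19 above 0), 0.15 at 2 hours (10 of 19) and -0.08 at 1 day (8 of 19). Of all genes, 54%, 52.7% and 50% lay above 0 at these times. NDUFAF5, a complex I factor that modifies NDUFS7, had 3.01, 6.99, 8.66 and 3.5 CPM at 2 hours in LG04, LG11, LG12 and LG15, against 5.87, 8.21, 12 and 5.55 CPM before treatment. It was lower in 4 of 4 animals, at -0.50 ± 0.23 (adjusted p of 0.67). COX16, which helps insert a mitochondrially encoded subunit into complex IV, was lower in 4 of 4 animals at 2 hours (-0.51 ± 0.28, adjusted p of 0.71) and at 1 day (-0.47 ± 0.29, adjusted p of 0.61). In all, 4 of 19 factors were lower in 4 of 4 animals at 2 hours and 3 at 1 day, and 0 were higher. Of all genes, 6.52% and 9.09% were lower in 4 of 4, and 8.06% and 9.83% higher. At 30 minutes the smallest p were those of NDUFAF1 (0.40 ± 0.24) and NDUFAF2 (0.70 ± 0.42), both complex I factors, and at 1 day those of NDUFAF1 (0.46 ± 0.25) and SDHAF2 (0.52 ± 0.30), which attaches flavin to SDHA. Between 2 hours and 1 day the assembly factor COX11, which delivers copper to complex IV, had the smallest p of all members. It was chosen after its values were seen, and had 9.20, 10.9, 13.3 and 8.30 CPM at 1 day against 7.53, 5.55, 5.20 and 3.0 CPM at 2 hours, a log2 fold change of 0.94 ± 0.30 with an adjusted p of 0.28.

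The other genes of the pathway also had 0 calls. None of the 8 electron carriers and dehydrogenases outside the symbol rule was called in any comparison. SQRDL, a mitochondrial enzyme that oxidises hydrogen sulfide and feeds ubiquinone, had the smallest p among them, with 0.50 ± 0.19 at 2 hours and 0.58 ± 0.19 at 1 day (adjusted p of 0.58 and 0.18), and CYC1, the cytochrome c1 of complex III, had 0.26 ± 0.24 at 2 hours. GPD2, which passes electrons from cytosolic glycerol phosphate, had 0.75 ± 0.31 at 1 day (adjusted p of 0.30). None of 15 tricarboxylic acid cycle genes was called, with medians of 0.05, 0.06 and -0.07 at 30 minutes, 2 hours and 1 day. The 2 smallest p at 2 hours in that list were those of MDH2 (0.29 ± 0.19) and FH (0.32 ± 0.25), and at 1 day those of IDH3A (0.41 ± 0.23) and DLST (0.20 ± 0.14). None of 13 regulators of mitochondrial biogenesis was called either. C10orf2, the mitochondrial DNA helicase Twinkle, had 0.56 ± 0.22 at 1 day (adjusted p of 0.25), and PPARGC1B, a coactivator, had 0.28 ± 0.21. Among 8 carriers and channels, VDAC3 had 0.52 ± 0.22 at 1 day (adjusted p of 0.30) and UCP2 0.57 ± 0.33 at 2 hours. Among 18 assembly genes outside the symbol rule, NUBPL, an iron-sulfur factor for complex I, had -0.91 ± 0.22 at 1 day, with an adjusted p of 0.093. For all of these lists edgeR called 0 genes in the 5 comparisons, and so did it for the lists of ribosomal proteins, mitochondrial ribosomal proteins and proteasome subunits. Of all genes, at most 0.225% were called in any comparison.

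Other large complexes are set beside the respiratory subunits for scale. At 30 minutes the median log2 fold change was 0.10 for the 78 subunits, 0.14 for the cytosolic ribosomal proteins, 0.05 for the mitochondrial ribosomal proteins and 0.03 for the proteasome. At 2 hours the median log2 fold change was 0.16 for the 78 subunits, 0.06 for 79 cytosolic ribosomal proteins, 0.06 for 73 mitochondrial ribosomal proteins and 0.07 for 35 proteasome subunits. At 1 day it was 0.04 for the subunits, -0.18 for the cytosolic ribosomal proteins, -0.01 for the mitochondrial ribosomal proteins and -0.04 for the proteasome. The differences between these lists were not tested.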

How the data were processed

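RNA came from unsorted blood mononuclear cells that had been frozen after density gradient separation, per the labels' protocols, and ribosomal RNA was depleted before stranded library preparation with 75 cycle single reads. The authors deposited raw counts per gene, without normalization, and FPKM, which are scaled to gene length and library size. Tools named in the submitters' processing notes include Trimmomatic, STAR and HTSeq, with GRCh37 and hg19 as builds. Strand settings, annotation version and the FPKM program are not stated there. Macaque reads were therefore counted on human gene models, and a gene that differs between the species can be undercounted.

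Tables per animal were used, their 24369 entries summed to 23602 symbols. Of 24 count columns in the series-wide tables, 23 matched the library they name. The one for LG04 at 2 hours held its 1 day values, and these tables were not used. Genes were tested with edgeR 4.0.16 in R 4.3.3 (TMM, filterByExpr, quasi-likelihood F test on time with animal as a block, leaving 9 residual degrees of freedom), with Benjamini-Hochberg adjustment over 11545 genes and a threshold of 0.05. The SE is the size of the log2 fold change over the square root of F. Where a gene's spread was below counting noise, edgeR's p can exceed what F gives. Differences per animal are of log2(CPM + 0.5). The fit was also run on counts simulated from its own fitted means and spread. That run meets the assumptions of the fit by design, so it cannot show how the fit handles shifts in cell content. Alternatives used DESeq2 1.42.0, limma 3.58.1 on log2(FPKM + 1), other scalings, filters, marker scores and left-out libraries.

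The block rests on the labels, which name the animal of each library. Within an animal, deviations from the time means correlated with a median r of 0.55 across genes, over 0.1 in 23 of 24 pairs. Reads carry no molecular identifiers, so limits from a count of 0 cover counting error only.

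Genes given with values were, against pre-treatment, the 4 subunits with the smallest p in each direction and the 2 assembly factors with the smallest p. A list of core and paralog subunits, the highest and lowest subunit in FPKM of each complex, members at 0 throughout and the 2 smallest p of each other pathway list were added, and other genes named were chosen after their values were seen. The values of 1 gene under this rule are not reported here. The members and lists were chosen with earlier results of these data known.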

Additional observations from a re-analysis of the deposited data

Results flagged for a closer look

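In 216 groups of 4 libraries (the named genes that were tested and the summed level of each complex, at each time), 10 had 1 library that stood far from the other 3 by Dixon's test, and chance flags about 1 in 20 groups. LG04 was the high one in 6 of them. At 2 hours it had 109.0 CPM of COX7B (others 28.6 to 41.4), 87.0 CPM of COX8A (others 27.0 to 30.4), 38.6 CPM of NDUFS3 (others up to 20.9), 37.3 CPM of UQCRFS1 (others 17.3 to 20.5) and 140.4 CPM summed over complex II (others 98.9 to 102.4). Before treatment it had 23.5 CPM of UQCRFS1 (others about 20). LG11 was the high one for ATP5B at 1 day, with 314.2 CPM (others 177.8 to 185.2), for NDUFS1 at 1 day, with 113.5 CPM (others 73.9 to 79.5), and for COX6A1 before treatment, with 13.5 CPM (others 7.97 to 8.38). LG15 had 13.3 CPM of NDUFA5 before treatment (others 6.54 to 7.63).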

How the results depend on the processing

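The count of respiratory chain genes called was 0 in all 5 comparisons under each of the 14 alternatives run. The median log2 fold change over the subunits changed sign without LG04 in 3 comparisons (30 minutes and 2 hours against pre-treatment, and 1 day against 2 hours). Over the 4 fits that each leave out 1 animal it ran from -0.04 to 0.15 at 30 minutes, from -0.03 to 0.22 at 2 hours and from 0.00 to 0.09 at 1 day against pre-treatment, from 0.01 to 0.12 at 2 hours against 30 minutes and from -0.23 to 0.05 at 1 day against 2 hours. At 2 hours against pre-treatment the median was -0.04 with a monocyte marker score in the fit and -0.08 with limma on log2(FPKM + 1), where that of all genes was -0.16. At 1 day it was -0.11 with a monocyte marker score in the fit (29 of 78 above 0) and -0.19 with limma on FPKM (21 of 78), a scale on which the median of all genes was -0.18; the cause was not tested. At 30 minutes it was -0.05 with limma on FPKM (30 of 78), where that of all genes was -0.10. At 1 day against 2 hours the median over the subunits was -0.04 with a monocyte score (34 of 78). Without the animal block (an unpaired fit) the medians were 0.11, 0.18 and 0.04 against pre-treatment, 0.06 at 2 hours against 30 minutes and -0.20 at 1 day against 2 hours. Mean summed levels over 16 libraries were 1108 (complex I), 67.7 (II), 934.7 (IV) and 1632 (V) in FPKM, another unit, against 756.9, 107.9, 471.6 and 1082 in TMM-scaled CPM, and complex V stood at 1244 CPM with globin counts left out. The count of all genes called at 1 day against pre-treatment, 26, was 1 without LG04, 2 without LG11, 1 without LG12 and 67 without LG15. It was 0 with the 4 shallowest libraries left out, 18 with only the 1 day library of LG04 left out, 70 with no filter, 3 without the block, 1 with a platelet score, 468 with a monocyte score, 6 with limma and 400 with DESeq2. DESeq2 called 11 genes at 30 minutes and 79 at 2 hours, where edgeR called 0. Of 245 values of named genes, 69 changed sign without LG04 and 72 with limma on FPKM, and 0 were called under any alternative. With limma on FPKM the median of all genes lay below 0 in all 5 comparisons. Depth limits the low genes most: 3 counts were worth up to 1.97 CPM.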
